A study of Homo sapiens with 6 samples.

Results

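The annexins, the S100 proteins and the giant scaffold proteins AHNAK and AHNAK2 were described at the RNA level in glioblastoma cells after knock-down of the long non-coding RNA HOTAIRM1. The members were picked by gene symbol, and these families were chosen with earlier results of these data known. They were every ANXA gene with a number, every S100 gene with an A number or the letter B, P, G or Z, and AHNAK and AHNAK2. The table of 59074 genes held 33 of them, namely 12 annexins, 19 S100 genes and the 2 AHNAK genes. RNA had been sequenced from 3 established human lines of glioblastoma, LN-229, T98G and U251, each of them transfected once with non-target siPOOLs (siControl, 3 libraries) and once with HOTAIRM1-specific siPOOLs (siHOTAIRM1, 3 libraries). The libraries of the first line carry the name LNT229 in their titles and LN-229 as their cell line label, and the latter is used here. siPOOLs are pools of many siRNAs, and both groups received the same transfection reagent and were harvested at 72 h. With 1 library for each line and siPOOL, the 3 cell lines served as the replicates, and no spread between libraries of 1 line and condition is known.

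Annexins are proteins that bind to negatively charged phospholipids when calcium rises, and so attach to the inner face of the plasma membrane and to endosomes. S100 proteins are small proteins with EF-hand motifs that mostly work as dimers, and most of them are calcium sensors that bind other proteins when calcium is bound. The families meet in complexes: S100A10 pairs with ANXA2 and the pair can hold AHNAK at the cell cortex, and S100A11 pairs with ANXA1. They are known for membrane repair, membrane traffic, cell motility and, once outside the cell, for signalling through surface receptors, and S100B is a classical marker of astrocytes.

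The depth, taken from the worth of 1 read in the low values, was 52.3 M to 104 M reads per library, where M stands for 1000000, and 3 reads corresponded to 0.0289 to 0.0574 CPM (the count of a gene per 1000000 reads of its library). The listed genes held 47.0% of the CPM scale in siControl and 48.5% in siHOTAIRM1 of LN-229. They held 50.2 and 42.9% in T98G and 67.2 and 55.9% in U251, so the share was lower in siHOTAIRM1 of T98G and U251. HOTAIRM1 was at 1.99 CPM in siControl and 0.952 CPM in siHOTAIRM1 of LN-229, at 3.49 and 2.15 CPM in T98G, and at 1.27 and 0.623 CPM in U251, so residual HOTAIRM1 RNA was measured in every knock-down library (mean change -0.54 on the log2 scale of CPM + 1, standard error 0.12, adjusted p = 0.0146 from limma). That call was lost with median centring (adjusted p = 0.170), rescaling to the listed genes (0.229), the length trend removed (0.225) and paired t-statistics (0.637), and without LN-229 (0.0711) or T98G (0.435). Of 10 glial and neural stem cell markers, 6 had a mean of at least 1 CPM. VIM was at 254 to 1794 CPM in all libraries, whereas GFAP was above 1 CPM in U251 only (42.5 and 20.7 CPM) and NES was at 0.956 and 0.866 CPM in T98G, against 329 to 507 CPM in the other lines. SOX2, a neural stem cell factor, was at or under 0.0146 CPM in T98G, at 8.15 and 8.60 CPM in LN-229 and at 91.4 and 117 CPM in U251. SLC1A3, on the same list, was at 18.3 and 13.1 CPM in T98G, 4.10 and 2.51 CPM in LN-229 and 66.3 and 61.8 CPM in U251. AQP4, an astrocyte water channel, was at or under 0.0341 CPM in all 6 libraries. The summed level of 5 myeloid markers was 0.102 to 2.32 CPM, that of 4 endothelial markers 0.408 to 3.08 CPM and that of 4 epithelial markers at most 0.275 CPM. The 4 neuronal markers summed to 26.3 CPM in siControl and 21.2 CPM in siHOTAIRM1 of LN-229, to 10.2 and 7.18 CPM in T98G and to 21.7 and 9.20 CPM in U251. In a bulk library, fewer cells that express a gene and less of its RNA per cell cannot be told apart.

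Of the 33 members, 18 averaged 1 CPM or more across all 6 libraries and were tested, comprising 7 annexins, 9 S100 genes and both AHNAK genes. AHNAK (chromosome 11 of hg38, 62433542 to 62556235, minus strand) has an annotated transcript of 18761 bases, and AHNAK2 (chromosome 14, 104937244 to 104978374, minus strand) one of 18335 bases. AHNAK was at 1179.85 and 887 CPM in the siControl and siHOTAIRM1 libraries of LN-229, at 2360.4 and 1637 CPM in T98G, and at 410.4 and 258 CPM in U251. T98G was thus highest and U251 lowest, and the libraries of the 3 lines did not overlap. AHNAK2 was at 313 and 149 CPM in LN-229, at 11.8 and 5.44 CPM in T98G, and at 88.5 and 41.9 CPM in U251. The order of the lines was another one here, since LN-229 was 26.8-fold above T98G and 3.54-fold above U251 in mean CPM.

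Per kilobase of transcript, S100A6 was the most abundant member in every line, with 900.0 CPM per kb for LN-229, 795.0 for T98G and 1825 for U251. S100A6, also called calcyclin, is a regulator of proliferation and of the ubiquitin ligase adaptor CACYBP. ANXA2, which links membranes to the actin cytoskeleton and binds plasminogen at the cell surface, came next with 208, 177 and 594 CPM per kb. Of the annexins, ANXA1, an inhibitor of phospholipase A2 and ligand of formyl peptide receptors, followed with 96.1, 111 and 153 CPM per kb. AHNAK was at 55.1, 107 and 17.8 CPM per kb, and AHNAK2 at 12.6, 0.470 and 3.56.

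**Figure D1:**
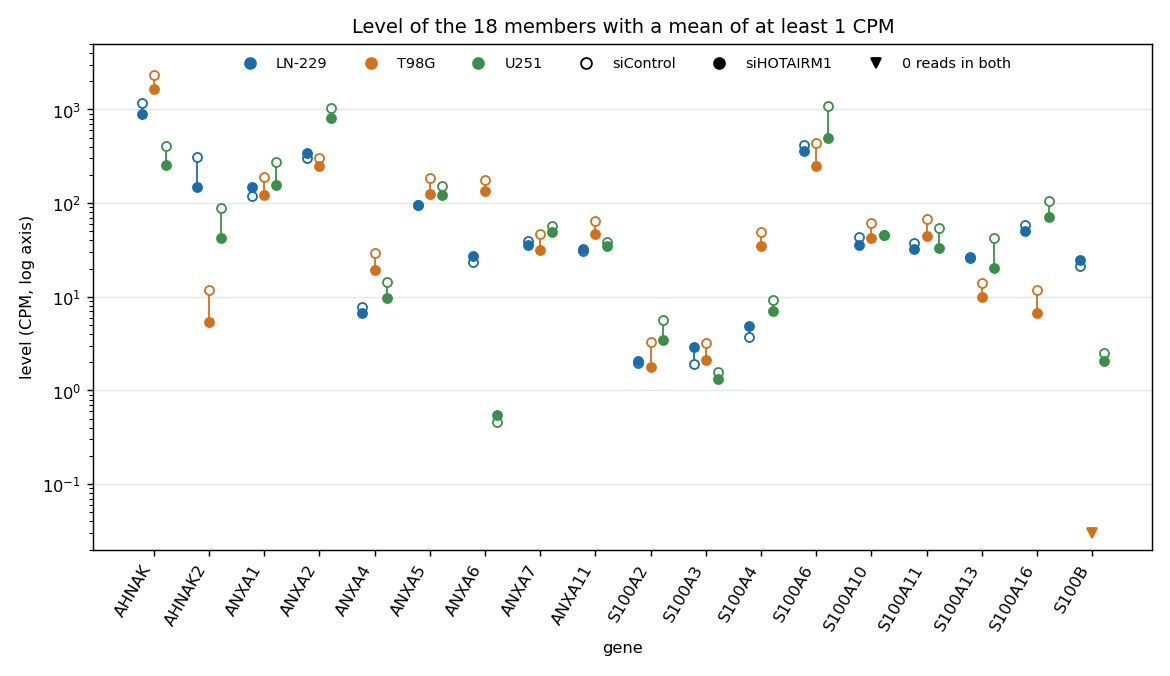
Level in CPM (log axis) of the 18 tested members in each of the 6 libraries, coloured by cell line, with open points for siControl, filled points for siHOTAIRM1 and a line joining the libraries of 1 cell line. ANXA6 in U251 (0.459 and 0.553 CPM) and S100B in T98G (0 reads in both libraries, drawn as a triangle) lie far below the other lines, while S100A10 and ANXA7 sit close together in all 3 lines.

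At least 1 pair of cell lines differed in 10 of the 18 tested members, beside 41.7% of all tested genes. A difference was called at an adjusted p under 0.05 (limma, with the siPOOL as a term and Benjamini-Hochberg adjustment over all 14294 tested genes) together with a log2 difference of CPM + 1 of at least 1. Each line entered with its siControl and siHOTAIRM1 library, so the spread is what a common knock-down change leaves over. Between LN-229 and T98G, 7 members differed, beside 21.3% of all tested genes. Between LN-229 and U251, 5 members differed, beside 24.6% of all tested genes. Between T98G and U251, 9 members differed, beside 27.0%. The filter on the mean keeps a member that is high in 1 line only, so these counts describe the tested members and not the families.

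ANXA6, an annexin with an enlarged core of repeats that takes part in membrane and cholesterol traffic, showed the widest range of the annexins. It was at 178 and 136 CPM in T98G, 23.6 and 27.5 CPM in LN-229, and 0.459 and 0.553 CPM in U251. T98G exceeded U251 by 6.70 on the log2 scale (standard error 0.18, adjusted p = 1.39e-26 from limma) and was 6.13-fold above LN-229 in mean CPM (adjusted p = 7.86e-15 from limma). ANXA2 was highest in U251, at 1029.6 and 818 CPM, against 247 to 343 CPM in the 4 other libraries. U251 was 2.85-fold above LN-229 and 3.37-fold above T98G in mean CPM, and LN-229 and T98G did not pass the test against each other (log2 difference 0.24, adjusted p = 0.392 from limma). ANXA4, an annexin of epithelial and secretory membranes, was at 7.82 and 6.65 CPM in LN-229, 29.6 and 19.2 CPM in T98G and 14.4 and 9.81 CPM in U251, and T98G was 3.37-fold above LN-229.

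The other 4 tested annexins had narrower ranges. ANXA5, the protein used to stain exposed phosphatidylserine on dying cells, was at 95.2 and 95.7 CPM in the siControl and siHOTAIRM1 libraries of LN-229, 186 and 124 CPM in those of T98G, and 153 and 123 CPM in those of U251. ANXA7, which promotes membrane fusion, was at 39.4 and 35.3 CPM (LN-229), 47.0 and 31.9 CPM (T98G) and 57.2 and 49.6 CPM (U251). ANXA11, which ties RNA granules to lysosomes, was at 30.6 and 32.0 CPM (LN-229), 64.1 and 46.9 CPM (T98G) and 38.4 and 34.7 CPM (U251). ANXA1 ranged from 120 to 272 CPM. None of these 4 genes met both criteria in any pair of lines. ANXA5, ANXA7 and ANXA11 passed the adjusted p alone in 2 of the 3 pairs each and ANXA1 in 1, and the largest of these log2 differences was -0.79, for ANXA11 in LN-229 minus T98G.

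Among the S100 genes, S100A4, S100A16 and S100B separated the lines most. S100A4, a binding partner of non-muscle myosin known for cell motility and metastasis, was at 48.7 and 35.0 CPM in T98G, 9.34 and 7.09 CPM in U251, and 3.72 and 4.83 CPM in LN-229. T98G was 9.80-fold above LN-229 and 5.09-fold above U251, while LN-229 minus U251 was -0.80 on the log2 scale, under the size required. S100A16, a widely expressed S100 protein, had another order, with T98G lowest. It was at 105 and 71.5 CPM in U251, 58.7 and 50.9 CPM in LN-229, and 11.9 and 6.78 CPM in T98G, and U251 was 9.43-fold above T98G. S100A13, which takes part in the release of growth factors without a signal peptide, was 2.19-fold higher in LN-229 and 2.58-fold higher in U251 than in T98G.

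S100B was at 21.1 and 24.7 CPM in LN-229, at 2.53 and 2.06 CPM in U251, and had 0 reads in both T98G libraries. With a floor of 3 reads per library, it was at least 486-fold higher in LN-229 and at least 47.3-fold higher in U251 than in T98G. S100A10, the ANXA2 partner, did not differ past the threshold in any pair (36.1 to 62.0 CPM over the 6 libraries), and its largest log2 difference, between LN-229 and T98G, was -0.37 (standard error 0.18). S100A11 was at 37.4 and 32.2 CPM (siControl and siHOTAIRM1 of LN-229), 67.1 and 44.8 CPM (T98G) and 53.8 and 33.2 CPM (U251). The levels of S100A2 and S100A3 were low. S100A2, known as a nuclear S100 protein of epithelium, was at a mean of 2.01 CPM in LN-229, and at 3.27 and 1.80 CPM in T98G and 5.66 and 3.46 CPM in U251. S100A3, a zinc-binding protein of the hair cuticle, was at 1.93 and 2.89 CPM in LN-229, 3.23 and 2.10 CPM in T98G and 1.59 and 1.32 CPM in U251. None of S100A2, S100A3, S100A10 and S100A11 met both criteria in any pair of lines.

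Of the 19 S100 members, 15 lie on chromosome 1, with annotated transcripts of 408 to 1172 bases. S100A10 (151982915 to 151993859) and S100A11 (152032506 to 152047907) stand apart at the lower end, and the run from S100A9 to S100A1 spans 153357854 to 153632039. Neighbours in this run had unlike levels. S100A9, S100A12, S100A8 and S100A7, the genes of the myeloid and epidermal calgranulins and psoriasin, were at or under 1.04 CPM in every library. S100A6, which follows them along the chromosome (153534599 to 153536244), was at 248 to 1088 CPM, and its neighbour S100A5 (153537147 to 153541765) at or under 0.0725 CPM. S100A16 (153606886 to 153613145) was at 6.78 to 105 CPM and the adjacent S100A14 (153614255 to 153616986) at or under 0.0341 CPM. All of these are on the minus strand except S100A9 and S100A1. S100A1 and S100A13 share 235 exon bases on opposite strands. The library kit does not keep the strand, so reads in that stretch cannot be told apart. S100A13 also shares 35.5% of its windows of read length (87 bases) with an overlapping lncRNA annotation.

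**Figure D2:**
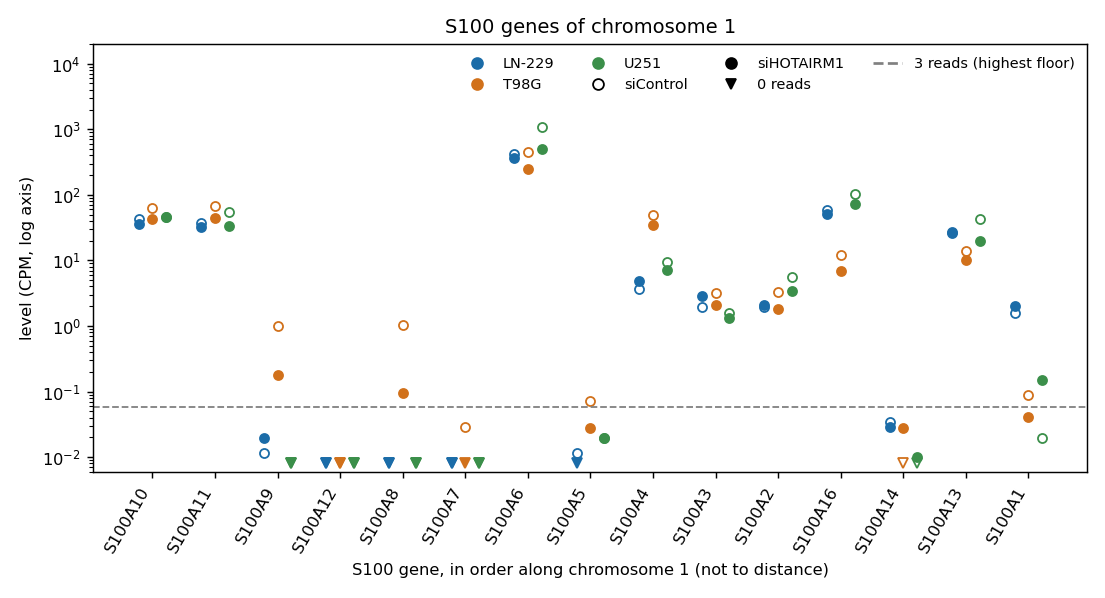
Level in CPM (log axis) of the S100 genes of chromosome 1, in the order of their start along the chromosome, in each library (open siControl, filled siHOTAIRM1, triangles 0 reads), with the highest level that 3 reads correspond to as a dashed line. S100A6 reaches 1088 CPM between genes at or near the dashed line, and S100A8 and S100A9 rise above it in T98G only.

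The other 15 members were below a mean of 1 CPM. S100A12, a calgranulin, and S100G, the intestinal calcium carrier calbindin-D9k, had 0 reads in all 6 libraries, and S100A7 had under 3 reads in every library. For these, 3 reads allow up to 0.0574 CPM in the shallowest library. ANXA9, ANXA13, S100A5, S100A14 and S100P were at or under 0.191 CPM. Several members had their higher levels in 1 or 2 lines. ANXA3, a liver and neutrophil annexin, was at 3.87 and 1.85 CPM in U251 and at or under 0.0826 CPM elsewhere. S100A1, known from heart muscle, was at 1.57 and 2.01 CPM in LN-229 and at or under 0.148 CPM elsewhere. S100Z was at 0.736 and 0.885 CPM in LN-229 and 1.03 and 1.40 CPM in U251, and had 0 reads in both T98G libraries. ANXA10 ranged from 0.0384 to 0.674 CPM. ANXA8, S100A8 and S100A9 had 3 reads or more in the T98G libraries only.

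The promoters of the members were searched for 4 short words. RefSeq starts on GRCh38.p14 were found for 30 of the 33 members, with the first listed start used, and the windows ran from 250 bases before to 50 bases after the start. The letters TATAAA, the core of the TATA box, stood on either strand in 11 of these 30 promoters (36.7%), beside 12.0% of 27305 promoters of the same length. Relatives within a family are not independent of each other, so these shares are a description. The windows of 4 members are printed as examples from genes at unlike levels, each 30 bases long on the strand of its gene, with TATAAA in capitals. They were picked from the 8 matches that began 28 to 32 bases before the start, and the other 3 began at positions -8 (S100A12), -11 (S100Z) and -61 (ANXA11) relative to the start.
S100A4: gcctggctggggTATAAAtaggtcagacct
S100A9: tcaggagctgccTATAAAtgccgagcctgc
ANXA1: cctttaaaatccTATAAAatcagaagccca
ANXA2: ggatgtggcgggTATAAAagccccacccag
The S100A4 window lies at chr1:153545820-153545849, that of S100A9 at chr1:153357813-153357842, that of ANXA1 at chr9:73151822-73151851 and that of ANXA2 at chr15:60398000-60398029. The capitals begin 31 bases before the start in S100A4, ANXA1 and ANXA2 and 29 bases before it in S100A9. The promoters of AHNAK, AHNAK2 and S100A6 had no match to TATAAA and 4, 6 and 3 matches to GGGCGG, the core of the GC box, counted on both strands with overlaps. GGGCGG stood in 13 of the 30 member promoters (43.3%), beside 44.6% of all. The AP-1 word TGANTCA stood in 4 of the 30 (ANXA2, S100A2, S100A3 and S100A12; 13.3%, beside 7.76% of all), and the TEAD word GGAATG in 2 (AHNAK and S100A16; 6.67%, beside 14.1%). None of the 4 words contains another. A match describes these letters only and is not a measured binding site.

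After HOTAIRM1 knock-down, AHNAK2 and S100A6 fell and no member rose past the threshold. The limma model of log2(CPM + 1) held the cell line as a block, with p-values adjusted over 14294 genes after Benjamini-Hochberg, so that a difference is siHOTAIRM1 minus siControl within a line. The 2 members that fell stand beside 1.59% of all tested genes, and the 0 that rose beside 0.413%. At an unadjusted p under 0.05 from limma, 10 of the 18 members were lower in the mean of the lines (2 AHNAK genes, 3 annexins and 5 S100 genes), beside 14.2% of all tested genes. None was higher (0, beside 4.19%). Of the 10, ANXA1 (0.32), S100A13 (0.02) and S100A2 (0.05) had a change above 0 in LN-229. With gene-wise paired t-statistics, adjusted over all genes, 0 members and 0 of all tested genes passed in either direction. Among the marker lists, SYT1, a synaptic vesicle calcium sensor on the neuronal list, fell too, from 18.6 to 11.9 CPM in LN-229, 2.03 to 0.880 CPM in T98G and 20.9 to 8.51 CPM in U251 (mean change -0.83, adjusted p = 0.00138 from limma). SNAP25, the other tested gene of the neuronal list, did not pass (mean change -0.05, adjusted p = 0.897 from limma). SNAP25 was at 6.88 and 8.46 CPM in LN-229, 6.83 and 5.55 CPM in T98G and 0.689 and 0.524 CPM in U251. The SYT1 call was lost with median centring (adjusted p = 0.0847 from limma), with rescaling, with the length trend removed and without T98G. It was also lost without the cell line in the model, with no filter and with paired t-statistics. The relation of the SYT1 fall to those of AHNAK2 and S100A6 was not tested.

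AHNAK2, a scaffold of the AHNAK family, was lower in siHOTAIRM1 in all 3 lines, and its level differed up to 26.8-fold between them. Against siControl it differed by -52.6% in LN-229 (313 to 149 CPM), by -53.8% in T98G (11.8 to 5.44 CPM) and by -52.6% in U251 (88.5 to 41.9 CPM). On the log2(CPM + 1) scale these changes were -1.07, -0.99 and -1.06. The mean change was -1.04 (standard error 0.14, adjusted p = 4.50e-05 from limma), the fifth lowest p of all tested genes. With no pseudocount, the 95% intervals of the counting error were -1.11 to -1.05 in LN-229, -1.29 to -0.94 in T98G and -1.14 to -1.02 in U251, and they overlap. They hold no spread between cultures, so their overlap does not show that the changes are equal. The call ended without T98G (-1.07, adjusted p = 0.190 from limma), where 0 of the 14294 genes passed, and it was also lost without the cell line in the model and with no filter on low values (adjusted p = 0.677 from limma over 36028 genes).

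AHNAK had the same direction with smaller changes and did not pass the threshold. siHOTAIRM1 differed from siControl by -24.8%, -30.7% and -37.2% in the same order of lines, and its mean change was -0.54 (standard error 0.22, adjusted p = 0.177 from limma). Both changes were seen against a downward shift of all genes in T98G, where the median change of the tested genes was -0.19, beside 0.01 in LN-229 and -0.03 in U251. Relative to these medians, AHNAK2 stood at -1.08, -0.80 and -1.03 and AHNAK at -0.42, -0.34 and -0.64 in LN-229, T98G and U251.

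**Figure D3:**
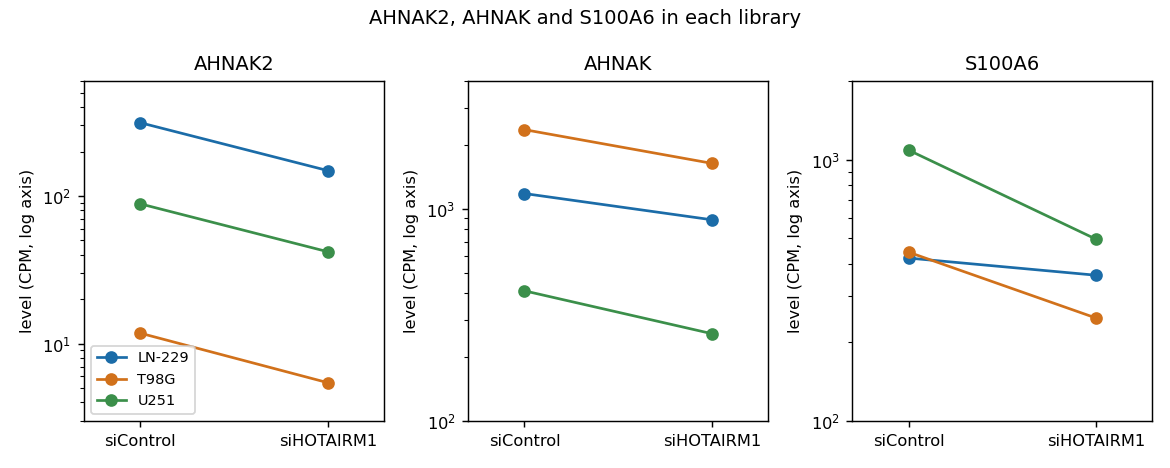
Level in CPM (log axis, a separate range for each gene) of AHNAK2, AHNAK and S100A6 in the siControl and siHOTAIRM1 library of each cell line. The 3 lines of AHNAK2 run parallel, with changes of -52.6% to -53.8%, whereas S100A6 changed by -14.1% in LN-229 and by -54.4% in U251.

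S100A6 fell by a mean of -0.73 (standard error 0.20, adjusted p = 0.0462 from limma), with unequal changes in the lines. It was at 420.1 and 361 CPM in LN-229, at 443 and 248 CPM in T98G, and at 1088 and 496 CPM in U251, which are log2 changes of -0.22, -0.84 and -1.13. The siHOTAIRM1 library was the lower one in each line, while the siHOTAIRM1 library of U251 lay above both siControl libraries of the other lines. The call was lost with each library centred on its median (-0.65, adjusted p = 0.161 from limma), with the libraries rescaled to the listed genes (-0.58, adjusted p = 0.259) and without LN-229 (-0.98, adjusted p = 0.0507), T98G (-0.67, adjusted p = 0.581) or U251 (-0.53, adjusted p = 0.596). It was also lost without the cell line in the model, with no filter (adjusted p = 0.677 from limma) and with paired t-statistics (adjusted p = 0.637).

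Transcript length moved with the changes. The annotated S100A6 transcript has 434 bases. Across tested genes, the Spearman correlation of the change with the length was 0.237 in T98G, 0.310 in U251 and -0.025 in LN-229, over 12336 genes that share their libraries, 106 of them with at least 15000 bases. At the length of S100A6 the trend over all genes was -0.27 in T98G and -0.43 in U251. The length trend at AHNAK2 was -0.04 and 0.10. After subtraction of the trend, the S100A6 differences were -0.22, -0.57 and -0.70 for LN-229, T98G and U251, with a mean of -0.50 (adjusted p = 0.130 from limma). AHNAK2 then changed by -1.10, -0.95 and -1.16, with a mean of -1.07 (adjusted p = 0.0175 from limma).

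**Figure D4:**
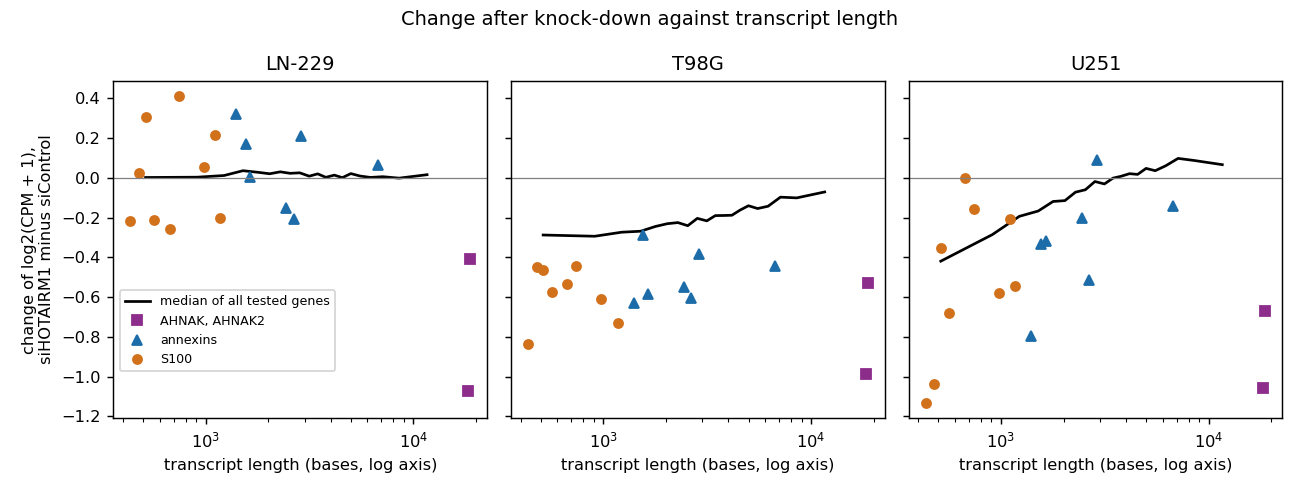
Change of log2(CPM + 1), siHOTAIRM1 minus siControl, of the tested members against the length of the annotated transcript (log axis) in each cell line, with the median change of all tested genes in 20 length bins as a black line. S100B is left out in T98G, where it had 0 reads. AHNAK2 lies about 1 log2 unit below the line in all 3 cell lines, and the S100 genes of U251 lie where the line itself is low.

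The other tested S100 genes did not pass the threshold. S100A16 (mean change -0.49, adjusted p = 0.0637 from limma), S100A11 (-0.49, adjusted p = 0.0659), S100A13 (-0.49, adjusted p = 0.0903) and S100A2 (-0.38, adjusted p = 0.142) came closest. S100A16 (-0.20, -0.73 and -0.55 in LN-229, T98G and U251) and S100A11 (-0.21, -0.57 and -0.68) had siHOTAIRM1 below siControl in all 3 lines. S100A13 was at 42.2 and 20.1 CPM in U251, a change of -1.04, at 14.1 and 10.1 CPM in T98G, and at 26.3 and 26.7 CPM in LN-229. With a pseudocount of 0.1, S100A11, S100A13 and S100A16 also passed (adjusted p = 0.0288, 0.0307 and 0.0214 from limma). S100A10 had values of -0.26, -0.54 and -0.001 in LN-229, T98G and U251, with a mean of -0.26 (standard error 0.15). S100A4 had values of 0.31, -0.46 and -0.35, with a mean of -0.17 that turned to 0.057 with the length trend removed. S100A3 had values of 0.41, -0.45 and -0.16, with a mean of -0.06 that turned to 0.0145 with median centring. S100B had a mean of 0.003 (standard error 0.14) that includes T98G, where it had 0 reads.

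None of the 7 tested annexins passed the threshold. ANXA4 came closest, with changes of -0.21, -0.60 and -0.51 in LN-229, T98G and U251 and a mean of -0.44 (standard error 0.14, adjusted p = 0.0941 from limma). ANXA7 had siHOTAIRM1 below siControl in all 3 lines too, with changes of -0.15, -0.55 and -0.20. ANXA1 was at 120 and 150 CPM in LN-229, at 189 and 122 CPM in T98G and at 272 and 156 CPM in U251, so its direction differed between the lines. Its mean change was -0.37 (standard error 0.18, adjusted p = 0.267 from limma). ANXA5 had values of 0.01, -0.58 and -0.32, and ANXA11 of 0.07, -0.44 and -0.14. ANXA6 had values of 0.21, -0.38 and 0.09, with a mean of -0.03 that turned to 0.051 with median centring.

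The counts of each family differed by line. In T98G, all 7 tested annexins and 8 of the 9 S100 genes had a change below 0, with medians of -0.55 and -0.54, beside a median of -0.19 and 79.3% of all tested genes below 0. In U251, 6 of the annexins and 9 of the S100 genes were below 0, with medians of -0.32 and -0.55, beside -0.03 and 53.2%. In LN-229, 2 annexins and 4 S100 genes were below 0, with medians of 0.07 and 0.02, beside 0.01 and 46.3%. Short transcripts were lower in U251 at large, and the trend over all genes lay at -0.43 to -0.22 at the lengths of the S100 genes. With the trend subtracted, 5 of the 9 S100 genes were below 0 in U251, and S100A10 (0.34), S100A3 (0.16), S100A4 (0.05) and S100B (0.03) were above it. In T98G, all 8 S100 genes with reads and all 7 annexins stayed below 0 after that step, as did 6 annexins in U251. In LN-229, 3 of the 7 annexins and 4 of the 9 S100 genes were below 0 after it. The share of all tested genes below 0 after that step was not counted, so these counts only describe the members. Whether the change differs between lines was not tested, since each line had 1 library per condition.

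**Figure D5:**
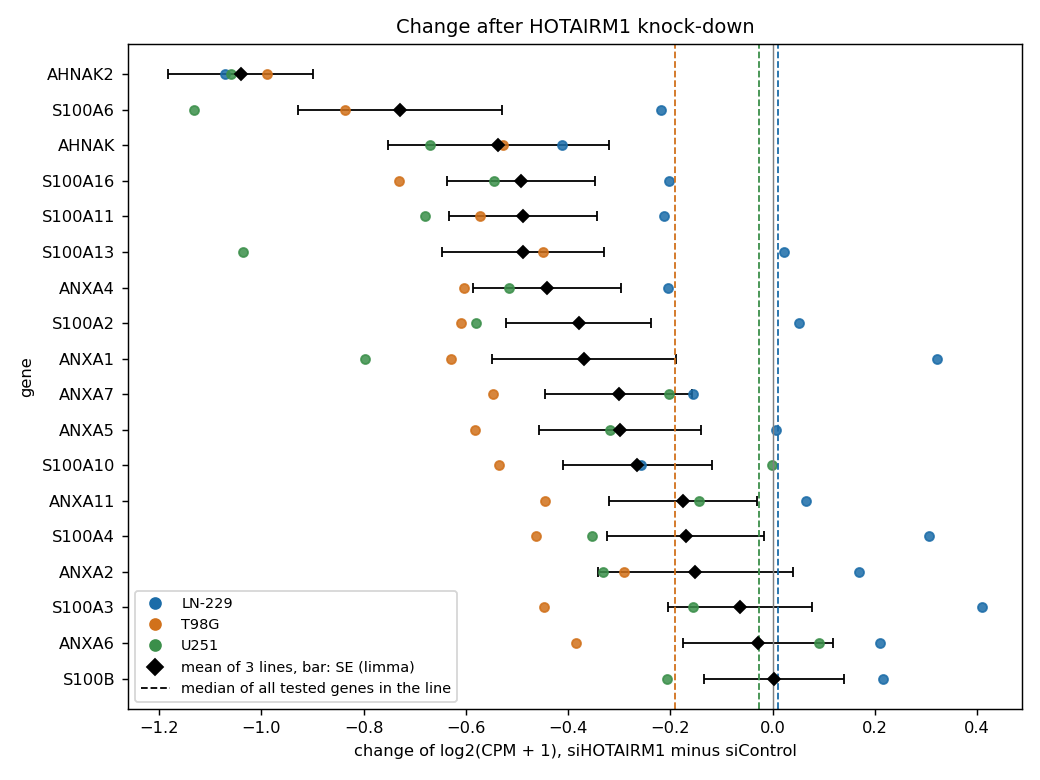
Change of log2(CPM + 1), siHOTAIRM1 minus siControl, of the 18 tested members in each cell line (coloured points) with the mean of the 3 lines and its standard error from limma (black diamonds and bars), and the median change of all tested genes in each line (dashed). The points of AHNAK2 coincide near -1.04, and those of ANXA1 and S100A13 spread most. S100B has no point in T98G, where it had 0 reads.

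ANXA2 shares reads with a pseudogene copy. Of the windows of 87 bases in its transcript, 23.4% also stand in ANXA2P2, which was listed at 0.868 to 0.988 times the level of ANXA2 in every library (244 to 951 CPM). The authors' Expectation-Maximization step divides such reads, so the split between the 2 genes is uncertain. ANXA2 had values of 0.17, -0.29 and -0.33 in LN-229, T98G and U251 (mean -0.15, adjusted p = 0.714 from limma), and ANXA2P2 had a mean of -0.19 (adjusted p = 0.629 from limma). ANXA8 shares 72.6% of its windows with ANXA8L1. In T98G, ANXA8 was at 2.77 and 0.762 CPM and ANXA8L1 at 5.04 and 2.54 CPM, and both were at or under 0.0193 CPM in the other lines.

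The calgranulin genes S100A8 and S100A9, whose products form calprotectin in neutrophils and stressed epithelium, had 3 reads or more in T98G alone. They and the other genes below the filter in this paragraph were singled out after their values were seen. S100A8 was at 1.04 CPM (95% Wilson interval 0.828 to 1.31, 72 reads) in siControl and 0.0963 CPM (0.0466 to 0.199, 7 reads) in siHOTAIRM1. S100A9 was at 0.985 CPM (0.777 to 1.25, 68 reads) and 0.179 CPM (0.105 to 0.306, 13 reads). The log2 ratios were -3.44 (95% interval of the counting error -4.56 to -2.32) and -2.46 (-3.32 to -1.61). ANXA8 had a log2 ratio of -1.86 (-2.29 to -1.43) in the same libraries. Its copy ANXA8L1, which holds 72.6% of its windows, had a log2 ratio of -0.99 (-1.25 to -0.73). The intervals do not cover the uncertain division of reads between these 2 genes. The 5 myeloid markers summed to 2.22 CPM in siControl and 1.61 CPM in siHOTAIRM1 of T98G, with PTPRC, the general leukocyte antigen, at 0.0870 and 0.0413 CPM, and the part of such cells in the result was not tested. In U251, ANXA3 differed by -52.2% (log2 ratio -1.07, -1.35 to -0.78). In LN-229, ANXA10 (0.76, 0.18 to 1.35) and S100A1 (0.35, 0.04 to 0.66) were higher in the siHOTAIRM1 library, while ANXA10 was lower in that of T98G (-0.86, -1.62 to -0.11). Intervals cover counting error only, since each of these compares 2 libraries.

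Receptors and partners were read from lists of gene symbols. Of 8 receptors and surface partners, 4 were tested and 0 passed in either direction. TLR4, FPR1 and AGER are named after their values were seen. TLR4, a receptor for S100A8 and S100A9, was closest, at 36.6 and 26.5 CPM in LN-229, 51.4 and 38.3 CPM in T98G and 85.1 and 58.2 CPM in U251 (mean change -0.47, adjusted p = 0.0713 from limma). FPR1, a receptor for ANXA1 peptides, was at 1.35 and 0.536 CPM in T98G and at 2.22 and 0.435 CPM in U251, and at or under 0.0114 CPM in LN-229. Its log2 ratios were -1.33 (95% interval of the counting error -1.87 to -0.79) and -2.35 (-2.85 to -1.85). AGER, the receptor for advanced glycation end products that binds several S100 proteins, had the opposite direction. It was at 0.442 and 0.750 CPM in LN-229, 0.869 and 1.24 CPM in T98G and 0.0767 and 0.425 CPM in U251. Its log2 ratios were 0.76 (0.21 to 1.32), 0.51 (0.04 to 0.98) and 2.47 (0.99 to 3.95), the last from 4 and 43 reads.

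Of 18 plasma membrane repair genes, 15 were tested, 1 rose and 0 fell. The one that rose was EHD2, an ATPase that stabilises caveolae, at 2.57 and 4.15 CPM in LN-229, 10.2 and 14.6 CPM in T98G and 3.25 and 6.38 CPM in U251. Its siHOTAIRM1 library was the higher one in every line, with a mean change of 0.60 (standard error 0.14, adjusted p = 0.0210 from limma). The direction held under all alternatives, but the call was lost with each library centred on its median (0.68, adjusted p = 0.0728 from limma), with rescaling to the listed genes (0.79, adjusted p = 0.109) and without any one of the lines (adjusted p = 0.0872 to 0.581). The EHD2 call was also lost without the cell line in the model, with no filter (adjusted p = 0.677 from limma) and with paired t-statistics. All 8 intracellular S100 partners were tested, and 0 passed in either direction. Of 16 other EF-hand calcium sensors, which include the calmodulins, 13 were tested and 0 passed. The median changes of the tested receptors, repair genes, S100 partners and EF-hand sensors were -0.25, -0.11, -0.21 and -0.04, beside -0.07 over all tested genes. Of the 7 S100 fused-type genes, which join an S100 domain to long repeats, 0 had a mean of 1 CPM. FLG, the filaggrin gene, singled out after its values were seen, was at 2.73 and 0.991 CPM in LN-229 (log2 ratio -1.46, 95% interval of the counting error -1.80 to -1.13) and at or under 0.0396 CPM in the other lines.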

How the data were processed

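Total RNA of 6 cultures was sequenced from TruSeq v2 libraries, which do not keep the strand. The authors trimmed the reads to 87 bases, aligned them in Partek Flow with STAR 2.4.1d to hg38, re-aligned unmapped reads with Bowtie, and divided reads among Ensembl 84 genes by Expectation-Maximization. The deposited values are CPM (counts per 1000000 reads) with 0.0001 added, so a value of 0.0001 is 0 reads. Low values stood at whole multiples of 1 read in 84.8 to 86.6% of cases (within 0.05 of a read, under 100 reads), so no count test was used.

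Genes that averaged 1 CPM or more were tested as log2(CPM + 1) with limma 3.58.1 in R 4.3.3, with cell line and siPOOL as terms and Benjamini-Hochberg adjustment over all 14294 genes. The pairing is by cell line: deviations from the group mean correlated at 0.948 to 0.967 between libraries of 1 line and at -0.526 to -0.467 between lines. Subtraction of the mean of 3 lines itself pushes the values between lines below 0, so their sign says nothing about the pairing. On simulated data with 200 genes changed by a log2 of 1, the knock-down test recovered 190 and called 3 others. Whether these counts carry over to the measured libraries, with their downward shift in T98G and their length trend, was not tested. Positions and lengths are those of GENCODE release 44.

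The named genes were every member over the filter, members under it by range, and up to 3 called genes of each list in each direction, and exceptions are said in the text. The members and lists were chosen with earlier results of these data known. The 15 members below 1 CPM were not tested, and intervals of low values cover counting error only.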

Additional observations from a re-analysis of the deposited data

Results flagged for a closer look

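Of the 18 tested members, 5 (27.8%) had differences of opposite sign in different cell lines, with counting intervals that left out 0 on both sides, beside 24.3% of all tested genes, as had 1 of the 15 members below the filter. After knock-down, ANXA1 differed by 0.32 in LN-229 and by -0.80 in U251 on the log2 scale of CPM + 1, a difference of 1.12. S100A3 differed by 0.41 in LN-229 and by -0.45 in T98G, a difference of 0.86. S100A4 differed by 0.31 in LN-229 and by -0.46 in T98G, a difference of 0.77. ANXA6 differed by 0.21 in LN-229 and by -0.38 in T98G, a difference of 0.59. ANXA2, whose reads are divided with ANXA2P2, differed by 0.17 in LN-229 and by -0.33 in U251, a difference of 0.50. ANXA10, below the filter, differed by 0.26 in LN-229 and by -0.25 in T98G, a difference of 0.51. All 6 were also opposite after the median change of each line was subtracted. Each value compares 1 library with 1 library, so the difference between the lines was not tested.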

How the results depend on the processing

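The count of 2 members that fell became 0 without the replicate block (the cell line), 5 with a pseudocount of 0.1, 0 with no filter, 1 each with median centring, rescaling to the listed genes and the length trend removed, and 0 with paired t-statistics. It was 0 to 1 with 1 cell line left out (0 without T98G). AHNAK2 was the 1 that remained wherever the count was 1. Over all genes, 59 rose and 227 fell, against 15 and 26 with median centring, 7 and 12 with rescaling, 20 and 40 with the trend removed, 149 and 534 with a pseudocount of 0.1, and 0 without the block, with no filter, with paired t-statistics or without T98G. Without LN-229 the counts were 31 and 239, and without U251 40 and 109.

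The HOTAIRM1 change lost its call at -0.54 without the block, with no filter and with paired t-statistics, at -0.46 with median centring, -0.56 with rescaling and -0.33 with the length trend removed, and lay at -0.56 to -0.50 with a line left out, where the call was lost without LN-229 or T98G. It was -0.87 with a pseudocount of 0.1, with the call kept. ANXA6 turned to 0.018 with a pseudocount of 0.1, 0.051 with median centring, 0.084 with rescaling and 0.049 with the length trend removed, and ranged from -0.15 to 0.15 with a line left out. S100A3 turned to 0.0145, 0.039 and 0.13 with centring, rescaling and the trend removed, and ranged from -0.30 to 0.13. S100A4 turned to 0.057 with the trend removed. S100B turned to -0.020 with a pseudocount of 0.1 and ranged from -0.10 to 0.11. Members that differed between LN-229 and U251 numbered 5 to 9 with a library left out, 9 without the siHOTAIRM1 library of LN-229. The causes were not tested. Summing close copies, chosen after seeing the data, left the 2 calls.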
